A study of Mus musculus with 5 samples.

Results

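The immediate-early and dissociation response genes are a set of transcription factors, signalling inhibitors and stress effectors. They are described here in mammary epithelial cells of young mice with floxed Mmp14 alleles, with and without an MMTV-Cre transgene. The set names 35 genes. A gene was measured where a probe set of the array was annotated to it alone, and a gene with several was represented by its brightest one, judged by the average of the 5 arrays. This gave 34 genes of 22180 genes tested in all. Fosl1 had a probe set that it shares with Ccdc85b and is not reported. Jund and Socs3 each had a second probe set.

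Immediate-early genes are transcribed within minutes of a stimulus, without prior protein synthesis, because the factors that switch them on (SRF with its partners of the ternary complex, and CREB) are already bound or activated by kinases. Their mRNAs are short-lived, and many of the proteins are either transcription factors that drive the next wave of genes (AP-1, EGR and NR4A proteins) or inhibitors that shut the signal off (dual-specificity phosphatases, SOCS3, tristetraprolin). In tissue that is minced and digested with enzymes, such as the mammary gland, the same genes are known to be induced by the dissociation itself.

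The cells came from the inguinal glands of 4-week-old mice on a congenic FVB/NJ background. The 2 knockout arrays hold mice with floxed Mmp14 alleles and the MMTV-Cre transgene, whose promoter is active mainly in mammary epithelium, so that recombination is directed to that cell type; the 3 wild-type arrays hold littermates that carry the same floxed alleles but lack the transgene. The lymph node was left out, the tissue was digested with collagenase and the stroma was removed by differential centrifugation. The labels do not say whether an array holds 1 mouse or several. A p-value here sets the group difference only against the spread among these 5 arrays, moderated by limma over all genes. That spread may be in part technical.

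Mmp14, the targeted metalloproteinase, read 7.98 on knockout 1 and 7.28 on knockout 2, against 8.15, 8.67 and 7.75 on wild type 1, 2 and 3 (log2 signal). Its difference was -0.56 ± 0.39 (SE, limma adjusted p = 0.919), and knockout 1 lay above wild type 3, so the groups overlapped and the array does not settle the genotype labels. Where its probes lie relative to the floxed part was not examined here. The epithelial label was checked on 9 luminal and 7 basal markers. Of the luminal ones Krt8, a keratin, read 11.34 to 11.48 and Epcam, an adhesion protein, 9.98 to 10.10, while Elf3, an epithelial transcription factor, read 6.55 to 7.23. Of the basal ones the keratin Krt14 read 8.96 to 9.29, Trp63, the transcription factor p63, 5.20 to 5.71, and Oxtr, the oxytocin receptor, 3.44 to 4.15, below the median of each array. Some stromal genes were as bright, so these markers do not show that the stroma was absent. The fibroblast genes Col1a2 and Dcn read 10.51 to 10.87 and 10.21 to 10.71, and Pdgfra 6.10 to 7.47. The adipocyte genes Fabp4 and Adipoq read 10.53 to 11.35 and 4.54 to 4.77. Wild type 1 stood apart in most skin and lymphocyte markers. It held the single highest value of 6 of 7 skin markers, all but Krt25 (15.5% of all genes). It also held that of 5 of 7 lymphocyte markers, all but Cd79a and Cd79b. Its signal for Krt10, a keratin of the epidermis, was 8.54 where the other 4 arrays read 5.34 to 5.50, and for Ptprc, the pan-leukocyte antigen CD45, it was 6.73 where they read 5.03 to 5.87.

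No immediate-early gene differed between the genotypes in limma's test over all genes. The adjusted p lay between 0.919 and 1 for the 34 genes, and 0 of them had an unadjusted p under 0.05; over all genes 0% were called by the adjusted p, 0.703% were higher and 0.595% lower at an unadjusted p under 0.05. The mean was higher in the knockout for 26 of the 34, against 46.3% of all genes, and the median difference was 0.07 log2 units, against 0.00 over all genes. The means of no gene of the set were 1.5-fold apart, as those of 0.365% of all genes were. Each knockout array read higher than each wild-type array for Junb, Ier2 and Socs3 (3 of 34; 2.63% of all genes) and lower for Klf6 (1 of 34; 2.8% of all genes). The 95% intervals of the difference still reached from -0.59 to 1.27 for Fos and from -0.34 to 1.03 for Egr1, which include a 1.5-fold difference, so one of that size was not detectable for these genes with 5 arrays.

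The 2 knockout arrays differed from each other in these genes. Knockout 2 read above every wild-type array for 19 of the 34 genes (22.6% of all genes), and 19 genes had their single highest value there (21.4% of all genes), while 5 had it on knockout 1 (17% of all genes). Knockout 1 read below every wild-type array for 11 genes (19.2% of all genes) and above for 8 (18.4% of all genes). Knockout 2 read below every wild-type array for 2 genes, Klf6 and Dusp5 (23.7% of all genes). For 7 genes (Atf3, Egr2, Nr4a2, Csrnp1, Ier5, Btg2 and Arc) knockout 2 lay above and knockout 1 below all wild-type arrays, which held for 6.37% of all genes, so that the 2 knockout arrays bracketed the wild type. The opposite order held for Dusp5 alone among the 34, and for 7.52% of all genes. Across the set knockout 2 was above knockout 1 for 25 genes (40.7% of all genes) by a median of 0.23, and 9 genes were 1.5-fold or more higher on knockout 2 than on knockout 1 (2.12% of all genes), with 0 that far the other way (2.66% of all genes). All 34 genes lay at or above the 40th percentile of signal, and among the 13308 genes that bright 45.9% had a higher mean in the knockout, 20.6% read higher on knockout 2 than on any wild-type array, 35.5% were higher on knockout 2 than on knockout 1 and 3.11% were so by 1.5-fold or more.

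**Figure D1:**
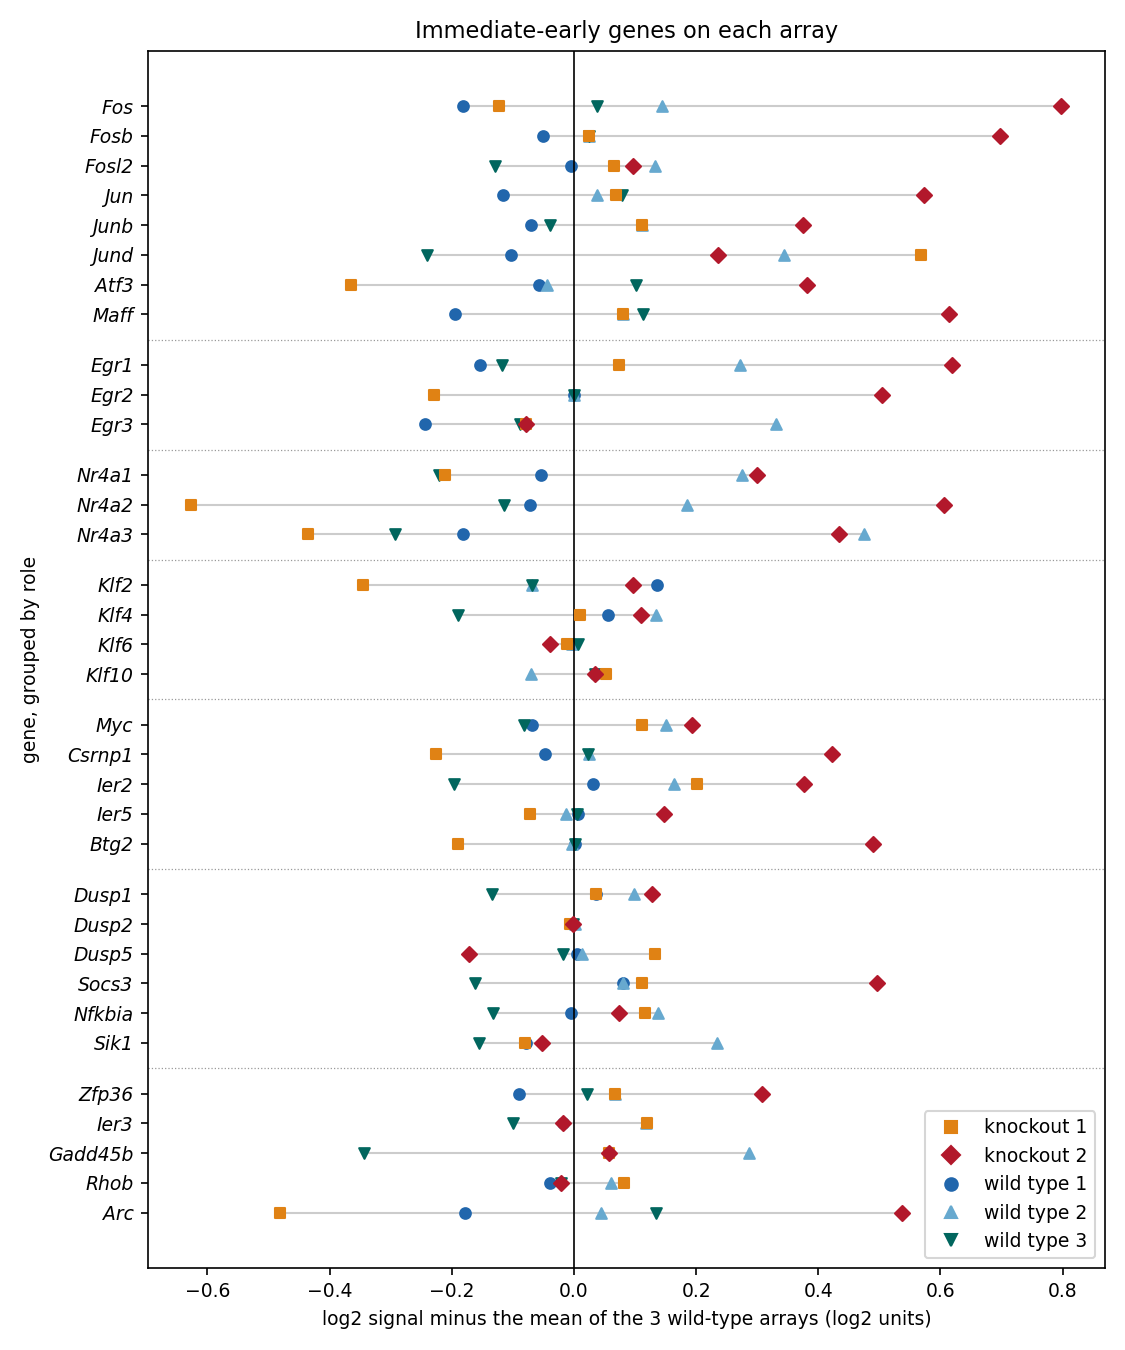
Log2 signal of each of the 34 immediate-early genes on each of the 5 arrays, minus the mean of the 3 wild-type arrays for that gene (horizontal axis, log2 units); genes are grouped by role, each marker is 1 array and the grey line spans the 5 arrays. Knockout 2 (red diamonds) is the highest array for 19 genes, reaching 0.80 above the wild-type mean for Fos, while knockout 1 (orange squares) reaches 0.63 below it for Nr4a2, a value of -0.63.

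Promoter sequence was set beside these values because many immediate-early genes are known as targets of SRF or CREB. RefSeq windows of 300 bases (250 before to 50 after a transcript start, GRCm38.p6) were listed for 27 of the 34 genes. On both strands, a CArG box, which SRF binds, was found in 3 of the 27 genes (11.1%, against 1.81% of 27025 genes with a window) and a full cAMP response element, TGACGTCA, in 3 (11.1%, against 2.03%). Its core TGACG, which every full element also holds, was found in 16 (59.3%, against 23% of genes), and the AP-1 site TGANTCA in 1, Csrnp1 (3.7%, against 8.97%). These shares are over all genes with a window, not only the bright ones. Of the tested genes at or above the 40th percentile of signal, as all of the set are, 3461 held the core and 6909 did not. The full element was held by 351 of them and not by 10019, the CArG box by 173 and not by 10197. A match is a run of letters and not a shown binding site, and a gene with several listed starts has more windows in which to match. Sites farther than 250 bases before a start were not searched, so a gene without a match here may still hold one. Windows that lie outside every RefSeq gene model are printed for the 4 genes with a CArG box or a full element and such a window (Zfp36, Dusp1, Btg2 and Dusp5) and for Fos and Atf3, the genes with the core and such a window whose knockout arrays were farthest apart. Each holds the 250 bases before the start, with CArG boxes and every TGACG or CGTCA in capitals.
Fos (chr12:85473640-85473889, plus strand): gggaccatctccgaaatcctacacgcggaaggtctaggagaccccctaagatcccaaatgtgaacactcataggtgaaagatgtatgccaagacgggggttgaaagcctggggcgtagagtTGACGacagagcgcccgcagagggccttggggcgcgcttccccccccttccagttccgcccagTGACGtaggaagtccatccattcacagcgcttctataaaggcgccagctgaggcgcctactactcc
Atf3 (chr1:191183334-191183583, minus strand): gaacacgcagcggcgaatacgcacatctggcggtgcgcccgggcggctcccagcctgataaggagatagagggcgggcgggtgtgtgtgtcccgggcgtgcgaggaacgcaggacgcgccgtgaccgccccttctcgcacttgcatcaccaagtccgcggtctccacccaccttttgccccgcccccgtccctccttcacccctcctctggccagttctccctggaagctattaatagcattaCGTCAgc
Btg2 (chr1:134079156-134079405, minus strand): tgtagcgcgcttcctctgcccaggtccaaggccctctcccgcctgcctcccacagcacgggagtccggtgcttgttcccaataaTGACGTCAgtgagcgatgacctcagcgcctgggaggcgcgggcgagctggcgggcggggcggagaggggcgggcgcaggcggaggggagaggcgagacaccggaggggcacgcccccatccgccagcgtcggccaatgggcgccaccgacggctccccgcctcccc
Dusp1 (chr17:26508473-26508722, minus strand): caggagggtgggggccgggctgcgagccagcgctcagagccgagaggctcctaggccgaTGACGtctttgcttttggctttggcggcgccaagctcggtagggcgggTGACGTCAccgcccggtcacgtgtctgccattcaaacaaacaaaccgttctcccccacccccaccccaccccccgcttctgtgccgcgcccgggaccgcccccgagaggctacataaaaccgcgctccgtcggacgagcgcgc
Dusp5 (chr19:53528895-53529144, plus strand): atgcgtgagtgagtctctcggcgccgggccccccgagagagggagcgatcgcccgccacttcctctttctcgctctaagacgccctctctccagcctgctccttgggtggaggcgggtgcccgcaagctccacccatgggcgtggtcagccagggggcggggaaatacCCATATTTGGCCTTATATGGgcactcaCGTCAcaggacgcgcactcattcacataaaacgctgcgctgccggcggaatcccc
Zfp36 (chr7:28379229-28379478, minus strand): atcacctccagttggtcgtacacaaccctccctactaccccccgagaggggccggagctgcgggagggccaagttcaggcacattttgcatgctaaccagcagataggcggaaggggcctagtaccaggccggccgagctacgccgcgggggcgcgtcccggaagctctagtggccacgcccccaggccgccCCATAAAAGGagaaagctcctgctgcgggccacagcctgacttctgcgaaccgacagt
The capitals show a CArG box 58 to 49 bases before the start of Zfp36 and a pair of adjoining ones 82 to 63 bases before that of Dusp5. The full element lies 166 to 159 bases before the start of Btg2 and 143 to 136 before that of Dusp1. Fos has a core 129 to 125 and another 66 to 62 bases before its start, and Atf3 one 7 to 3 bases before. Among the windows not printed, the CArG box CCATATATGG stands in 3 overlapping windows of Egr2, at the same genomic position in each. Another window of Egr2 holds the CArG box CCTTTTTTGG, and 1 window of Maff holds a full element.

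The core was then set beside the distance between the knockout arrays, after the values were seen. Of the 16 genes that hold it 15 were higher on knockout 2 than on knockout 1, by a median of 0.59, with Dusp5 as the exception; of the 11 without it 5 were, with a median of 0.00. Over all genes tested with a window, 37.3% of 4560 genes with the core were higher on knockout 2 and 41.3% of 12430 genes without it. At or above the 40th percentile of signal these were 33.5% of 3461 and 35.4% of 6909. Other motifs did not all split the set this way. With a CArG box 2 of 3 genes were higher on knockout 2 (median 0.24), without it 18 of 24 (0.32). With a full element 3 of 3 were (0.53), without it 17 of 24 (0.25). With the TATA box TATAAA 3 of 5 were (0.26), without it 17 of 22 (0.31). The 1 gene with an AP-1 site was (0.65), as were 19 of 26 without (0.25). The median knockout minus wild-type difference was 0.07 with the core and 0.08 without. These are counts over genes of the same arrays, with no test.

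The AP-1 subunits and their bZIP relatives pair through a leucine zipper and bind DNA as dimers. All 8 measured had a higher mean in the knockout (46.3% of all genes), with a median difference of 0.33. Fos, the founding subunit, read 7.22 on knockout 1 and 8.14 on knockout 2, against 7.16, 7.48 and 7.38 on wild type 1, 2 and 3. Knockout 2 stood alone and knockout 1 lay among the wild-type arrays, and the difference was 0.34 ± 0.33 (SE). Fosb, a close relative of Fos, read 8.92 and 9.59 on the knockout arrays, against 8.84, 8.92 and 8.92. Knockout 1, wild type 2 and wild type 3 were equal to 6 decimals, and knockout 2 was 1.59-fold above knockout 1. Fosl2, which lacks the strong activation domain of Fos, read 8.23 and 8.26, against 8.16, 8.30 and 8.04, with both knockout arrays inside the wild-type range.

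Jun, the main partner of Fos, read 8.67 on knockout 1 and 9.18 on knockout 2, against 8.49, 8.64 and 8.68, again with knockout 2 alone above the rest (0.32 ± 0.18, SE). Junb, a Jun protein that often opposes its growth-promoting action, read 8.184 and 8.447, against 8.001, 8.183 and 8.033. Its groups did not overlap, but knockout 1 and wild type 2 differed only in the third decimal, and after quantile normalisation they overlapped; the difference was 0.24 ± 0.11 (SE, limma adjusted p = 0.919). Jund, the Jun protein expressed most steadily in resting cells, had the opposite order of the knockout arrays, 9.57 on knockout 1 and 9.24 on knockout 2, against 8.90, 9.35 and 8.77. Its second, dimmer probe set read 7.41 and 7.27, against 7.11, 7.12 and 7.08, and there both knockout arrays lay above the wild type.

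Atf3, a stress-induced repressor of the ATF family, read 9.74 on knockout 1 and 10.49 on knockout 2, against 10.05, 10.07 and 10.21. The 2 knockout arrays lay on either side of the wild type, and the mean difference was 0.01 ± 0.26 (SE). Maff, a small MAF protein without an activation domain of its own, read 6.84 and 7.37, against 6.56, 6.84 and 6.87, with knockout 2 above and knockout 1 inside the wild-type range.

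The EGR zinc finger factors bind GC-rich sites and connect growth factor signals to their target genes. Egr1 read 9.29 on knockout 1 and 9.84 on knockout 2, against 9.07, 9.49 and 9.10; knockout 1 lay between the wild-type arrays and the difference was 0.35 ± 0.24 (SE). Egr2 read 6.16 and 6.89, against 6.39 on all 3 wild-type arrays, which were equal to 6 decimals. The knockout arrays bracketed that value, with a mean difference of 0.14 ± 0.25 (SE). Egr3 read 6.34 on both knockout arrays, against 6.17, 6.75 and 6.33, where wild type 2 was the high one.

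The NR4A orphan nuclear receptors act without a known natural ligand and are controlled by how much of them is made. They showed the widest distance between the knockout arrays of any role, with a median of 0.87, and mean differences close to 0. Nr4a1 read 9.32 on knockout 1 and 9.83 on knockout 2, against 9.48, 9.81 and 9.31. Nr4a2 read 7.20 and 8.44, against 7.76, 8.02 and 7.72; knockout 2 was 2.35-fold above knockout 1, the largest ratio among the 34 genes. Nr4a3 read 7.29 and 8.16, against 7.54, 8.20 and 7.43. Knockout 1 was the lowest array for Nr4a2 and Nr4a3, and for all 3 receptors wild type 2 was the highest wild-type array. The mean differences were 0.04 ± 0.24 for Nr4a1, -0.01 ± 0.43 for Nr4a2 and -0.00 ± 0.40 for Nr4a3 (SE).

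The Krüppel-like factors, zinc finger regulators of growth and differentiation, had a median difference of 0.01. Klf2, a factor of quiescent lymphocytes and of endothelium under flow, read 5.08 on knockout 1 and 5.52 on knockout 2, against 5.56, 5.36 and 5.36, with knockout 1 below the other 4 arrays; the other 3 factors had gaps of at most 0.10 between the knockout arrays. Klf4, a factor of epithelial differentiation, read 7.93 and 8.03, against 7.98, 8.05 and 7.73, with overlapping groups. Klf6 read 9.54 and 9.51, against 9.54, 9.54 and 9.55, so that both knockout arrays were below the wild type by a difference of only -0.03 ± 0.02 (SE, limma adjusted p = 0.919). Klf10, a TGF-beta-induced repressor, read 7.77 and 7.76, against 7.76, 7.65 and 7.76, with wild type 2 lowest, knockout 1 highest and the other 3 arrays equal to 6 decimals.

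The other nuclear regulators had a higher mean in the knockout for all 5 measured (46.3% of all genes). Each had its highest value on knockout 2 (21.4% of all genes). Myc, the growth-promoting bHLH factor, read 9.97 on knockout 1 and 10.05 on knockout 2, against 9.79, 10.01 and 9.78, with overlapping groups. Ier2, a nuclear protein of uncertain mechanism, read 6.87 and 7.04, against 6.70, 6.83 and 6.47; the groups did not overlap, and the difference was 0.29 ± 0.14 (SE, limma adjusted p = 0.919). Csrnp1, a nuclear protein induced by axin, read 7.09 and 7.73, against 7.26, 7.34 and 7.33. Ier5, which binds the heat shock factor HSF1, read 7.64 and 7.86, against 7.72, 7.70 and 7.72. Btg2, an antiproliferative partner of the CCR4-NOT deadenylase, read 9.14 and 9.82, against 9.34, 9.33 and 9.34. For these last 3 genes the wild-type arrays lay close together, within 0.07, 0.02 and 0.004 log2 units, and the knockout arrays fell on either side.

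The 6 inhibitors of kinase, cytokine and NF-kappaB signalling had a higher mean in the knockout for 3 (46.3% of all genes). Their median difference was 0.04 and the median distance of knockout 2 above knockout 1 was 0.02. Dusp1, a phosphatase of p38 and JNK, read 8.58 and 8.67 on the knockout arrays, against 8.58, 8.64 and 8.41. Dusp2, a nuclear ERK phosphatase of immune cells, read 4.80 on both, against 4.80, 4.81 and 4.80, and all its values lay within 0.01. Dusp5, a nuclear ERK phosphatase induced by ERK itself, read 7.84 on knockout 1 and 7.53 on knockout 2, against 7.71, 7.72 and 7.68, the reverse of the order seen for Fos.

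Socs3, which blocks cytokine receptors that signal through JAK and STAT3, read 7.68 on knockout 1 and 8.06 on knockout 2, against 7.65, 7.65 and 7.41. Its groups did not overlap, with a difference of 0.30 ± 0.16 (SE, limma adjusted p = 0.919), but on its second, dimmer probe set they did, at 4.22 and 4.57, against 3.90, 4.39 and 4.01. Nfkbia, the inhibitor that holds NF-kappaB in the cytoplasm, read 9.85 and 9.81, against 9.73, 9.87 and 9.60. Sik1, a kinase that keeps CREB coactivators out of the nucleus, read 8.20 and 8.22, against 8.20, 8.51 and 8.12. Both had overlapping groups with wild type 2 as the highest array.

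Among the effectors, Zfp36 and Arc had their highest value on knockout 2. Zfp36, tristetraprolin, which directs AU-rich mRNAs to decay, read 10.25 on knockout 1 and 10.49 on knockout 2, against 10.09, 10.25 and 10.21; knockout 1 equalled wild type 2 to 6 decimals. Arc, a capsid-like protein best known from neurons, read 4.91 and 5.93, against 5.21, 5.43 and 5.52, a 2.02-fold distance between the knockout arrays that bracketed the wild type. Ier3, a survival factor, read 10.34 and 10.21, against 10.21, 10.34 and 10.13. Gadd45b, which activates stress kinases, read 9.14 on both, against 9.14, 9.37 and 8.74, so that the wild type alone was spread. Rhob, a GTPase of endosomes, read 6.98 and 6.88, against 6.86, 6.96 and 6.88. The groups overlapped for all 5 effectors.

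By their numbering in the labels the arrays form 2 consecutive series, here called runs: knockout 1, wild type 1 and wild type 2 in the first, wild type 3 and knockout 2 in the second. What separates the runs is not stated. Within the first run the median difference of the set was -0.01, with 16 of 34 genes above 0 (44% of all genes). Nr4a2 was the one gene 1.5-fold or more apart there (0.843% of all genes). Within the second run, which has 1 array per genotype and no replicate check, it was 0.35, with 29 of 34 above 0 (39% of all genes). In the second run 6 genes were 1.5-fold or more higher in the knockout (1.4% of all genes): Fos by 0.76, Egr1 by 0.74, Nr4a3 by 0.73, Nr4a2 by 0.72, Fosb by 0.67 and Socs3 by 0.66 log2 units. In the first run the same genes stood at -0.10, 0.02, -0.58, -0.68, 0.04 and 0.03. The change of the genotype difference from run to run was tested over all genes with limma's interaction term, where the spread comes from wild type 1 and 2 alone. This test was added after the data were seen. It was called for 0 of the 34 (0% of all genes; adjusted p from 0.0531 upwards). At an unadjusted p under 0.05 it was higher in the second run for 7 genes (11.7% of all genes) and lower for 2 (13.9% of all genes).

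**Figure D2:**
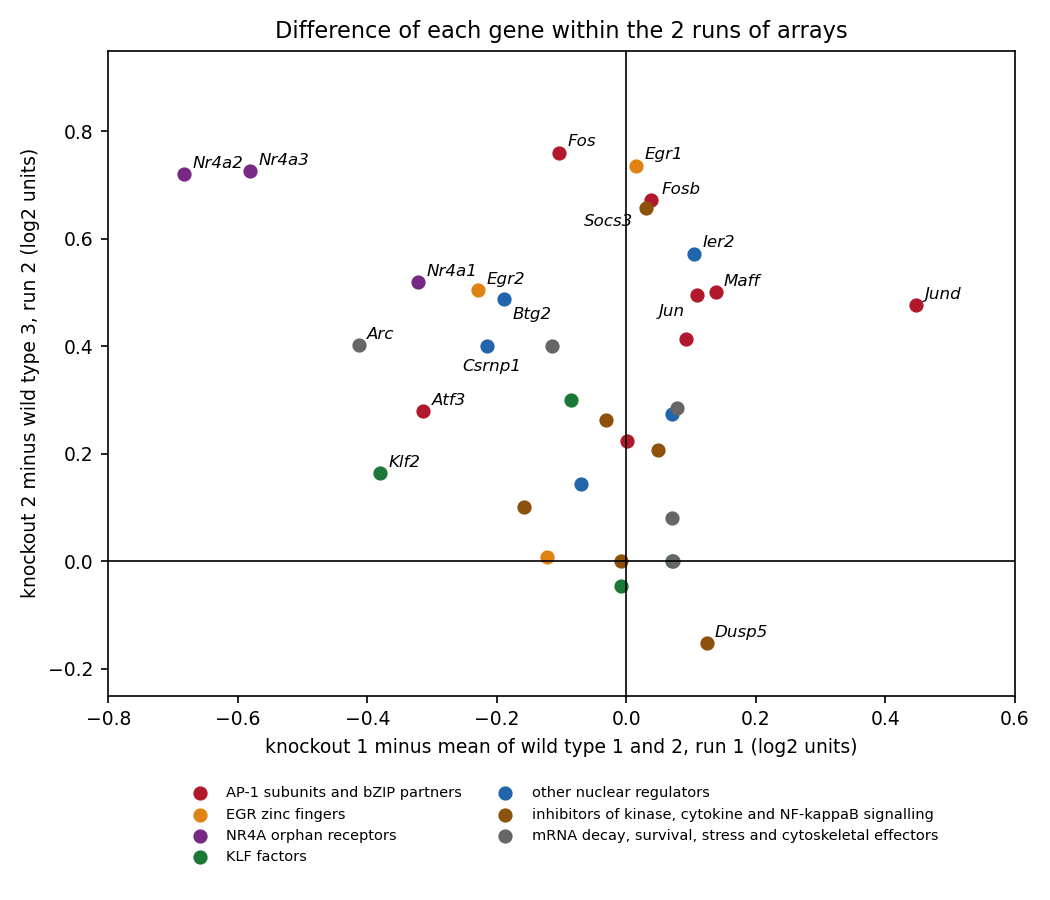
Difference between genotypes for each of the 34 immediate-early genes within the 2 runs of array numbers: knockout 1 minus the mean of wild type 1 and 2 (horizontal axis) and knockout 2 minus wild type 3 (vertical axis), both in log2 units, coloured by role. Most points lie above 0 on the vertical axis (29 of 34) and spread to both sides of 0 on the horizontal one (16 above), with the NR4A receptors at the upper left and Dusp5 at the lower right.

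The wild-type arrays differed among themselves in these genes too. The median range over the 3 wild-type arrays was 0.23 for the set and 0.12 over all genes, and the median range over all 5 arrays was 0.55 against 0.21. Wild type 2 held the single highest value of 8 genes (15.4% of all genes), wild type 1 of 1 (15.5%) and wild type 3 of 1 (18.5%). The lowest value fell on wild type 3 for 12 genes (15.3% of all genes), on knockout 1 for 10 (17.6%) on wild type 1 for 9 (15.5%), on knockout 2 for 2 (22.5%) and on wild type 2 for 1 (16.8%). Averaged over the set, the arrays stood at -0.04 for knockout 1 and 0.27 for knockout 2, and at -0.05, 0.11 and -0.07 for wild type 1, 2 and 3, relative to the wild-type mean. Equal values on 2 or more arrays, to 6 decimals, were found for 15 of the 34 genes (68.8% of all genes); they lower the estimated spread of a gene.

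**Figure D3:**
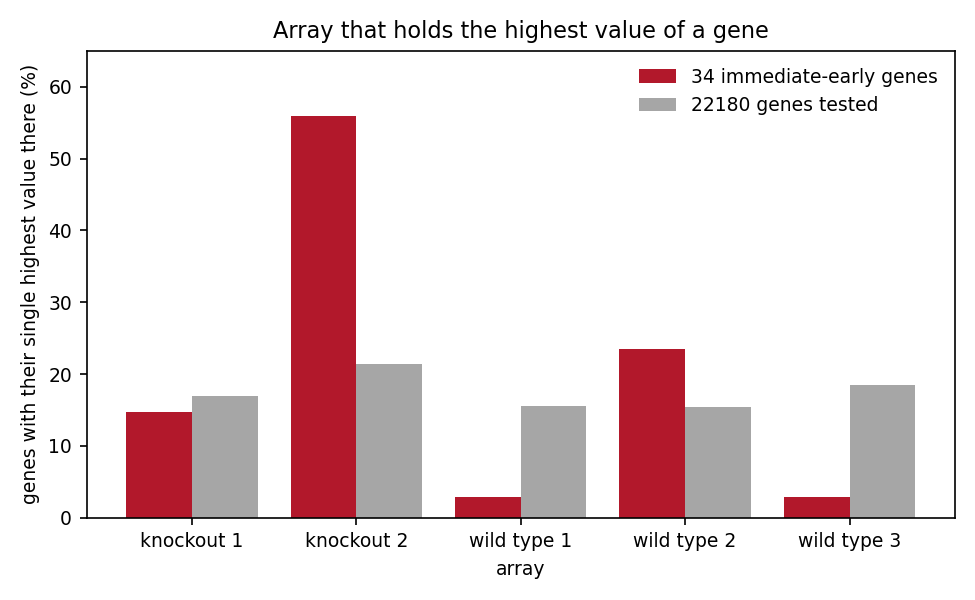
Share of genes (vertical axis, percent) whose single highest value lies on each of the 5 arrays, for the 34 immediate-early genes (red) and for the 22180 genes tested (grey); genes tied for the highest value are counted on no array. Knockout 2 holds the highest value of 55.9% of the set and 21.4% of all genes, and wild type 1 and wild type 3 hold 2.94% of the set each.

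The genes around the set were counted from 7 lists of the signalling pathway and its outputs, and 0 genes of these lists passed limma's adjusted p. For the counts of each list, the share of all genes with a higher mean in the knockout was 46.3%. The share higher on knockout 2 than on knockout 1 was 40.7%. Of 18 measured kinases and factors that feed the set, 10 had a higher mean in the knockout, with a median of 0.01; Crtc2, a CREB coactivator, stood at 0.24 ± 0.12 (SE) and Srf itself at 0.10 ± 0.07. Of 22 further rapid-response genes, 15 were higher in the mean (median 0.07). Phlda1, a pleckstrin-homology protein, was the only gene of the 7 lists with an unadjusted limma p under 0.05 (0.20 ± 0.03, SE). Over all genes 0.703% were higher and 0.595% lower at that threshold. Phlda1 read 9.93 and 9.85 on the knockout arrays, against 9.68, 9.71 and 9.70. Zfp36l2, a relative of tristetraprolin, stood at 0.37 ± 0.24. Of 11 ERK feedback genes 9 were higher in the mean (median 0.05), with Dusp7, an ERK phosphatase, at 0.10 ± 0.04 and Errfi1, an inhibitor of the EGF receptor, at 0.17 ± 0.11.

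Of the 13 secreted delayed-early genes, such as growth factors and chemokines made after the first wave, 2 were higher on knockout 2 than on knockout 1. Relative to the wild-type mean they averaged 0.11 on knockout 1 and -0.19 on knockout 2, and 0.063, 0.18 and -0.25 on wild type 1, 2 and 3, so both arrays of the second run were low. Within the second run 10 of the 13 were above 0 (39% of all genes), by a median of 0.075, and within the first run 6 were (44%). Ccn2, a matricellular target of SRF and YAP, was at -0.31 ± 0.40 (SE) and Plaur, the urokinase receptor, at 0.08 ± 0.05. Of 11 other bZIP partners 8 were higher on knockout 2 than on knockout 1 and 8 were higher in the mean (median 0.03), with Atf4 at 0.04 ± 0.02 and Jdp2, a repressor that pairs with Jun, at 0.21 ± 0.14. Of 12 genes of AU-rich mRNA decay 4 were higher (median -0.02), with Elavl1, an mRNA-stabilising protein, at 0.11 ± 0.05 and Cnot6, a deadenylase, at -0.08 ± 0.05. None of these passed the test (limma adjusted p = 0.919 for each gene named).

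Heat shock genes respond to unfolded protein and to handling. All 11 measured were higher on knockout 2 than on knockout 1 (40.7% of all genes), but they were also high on wild type 3. Their average was -0.23 on knockout 1, 0.41 on knockout 2 and -0.16, -0.10 and 0.25 on wild type 1, 2 and 3. Dnajb1, a cochaperone, read 6.90 and 7.62 on the knockout arrays, against 6.89, 7.07 and 7.22; Bag3, a nucleotide exchange factor, read 9.06 and 9.83, against 8.94, 9.36 and 9.30. The immediate-early set averaged -0.07 on wild type 3, with 12 of 34 genes above the wild-type mean and 21 below. Of the AP-1 subunits and their relatives 5 of 8 were above it and 3 below. Whether heat shock and immediate-early genes share a response was not tested. Over both genotypes the heat shock difference was a median of 0.10, with 8 of 11 higher in the mean.

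Markers of other cell types also separated knockout 2 from knockout 1. In bulk RNA, fewer cells of a type and less RNA per cell cannot be told apart. All 9 endothelial markers were higher on knockout 2 than on knockout 1, against 40.7% of all genes. Their summed log2 signal was 57.6 and 64.1 on the knockout arrays and 59.8 to 64.0 in the wild type. It was above the wild-type mean on wild type 2 as well, as were the pericyte, fibroblast and basal sums. Pecam1, an endothelial adhesion protein, read 7.64 on knockout 1 and 8.80 on knockout 2, against 8.35, 8.62 and 8.31. Of 6 pericyte markers 5 were higher on knockout 2 than on knockout 1 (sums 34.3 and 37.0, wild type 34.4 to 37.3), as were 6 of 7 fibroblast markers (63.6 and 64.9, wild type 61.5 to 65.4) and 4 of 7 basal markers (52.0 and 53.2, wild type 50.3 to 53.1). Of 9 luminal markers 0 were higher on knockout 2 (87.3 and 84.9, wild type 85.9 to 86.2).

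Immune, fat and skin markers were counted in the same way, beside the same 40.7% of all genes. Macrophage markers were higher on knockout 2 than on knockout 1 for 1 of 8 (sums 42.4 and 41.1, wild type 41.0 to 44.1), lymphocyte markers for 5 of 7 (29.9 and 30.4, wild type 30.5 to 35.9), adipocyte markers for 2 of 6 (31.1 and 32.0, wild type 31.2 to 31.8) and skin markers for 5 of 7 (26.2 and 26.5, wild type 26.2 to 34.4). The 10 measured mitochondrial transcripts, a sign of RNA quality, were all higher in the mean in the knockout (46.3% of all genes), by a median of 0.09. For 6 of the 10 each knockout array was above each wild-type array (2.63% of all genes). The sums over the 10 were 112.2 and 111.9 on the knockout arrays, against 110.5 to 111.6, with wild type 2 the lowest. No marker list had a gene that passed limma's adjusted p. The part of cell composition, RNA quality and run in the levels of the immediate-early genes was not tested.

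**Figure D4:**
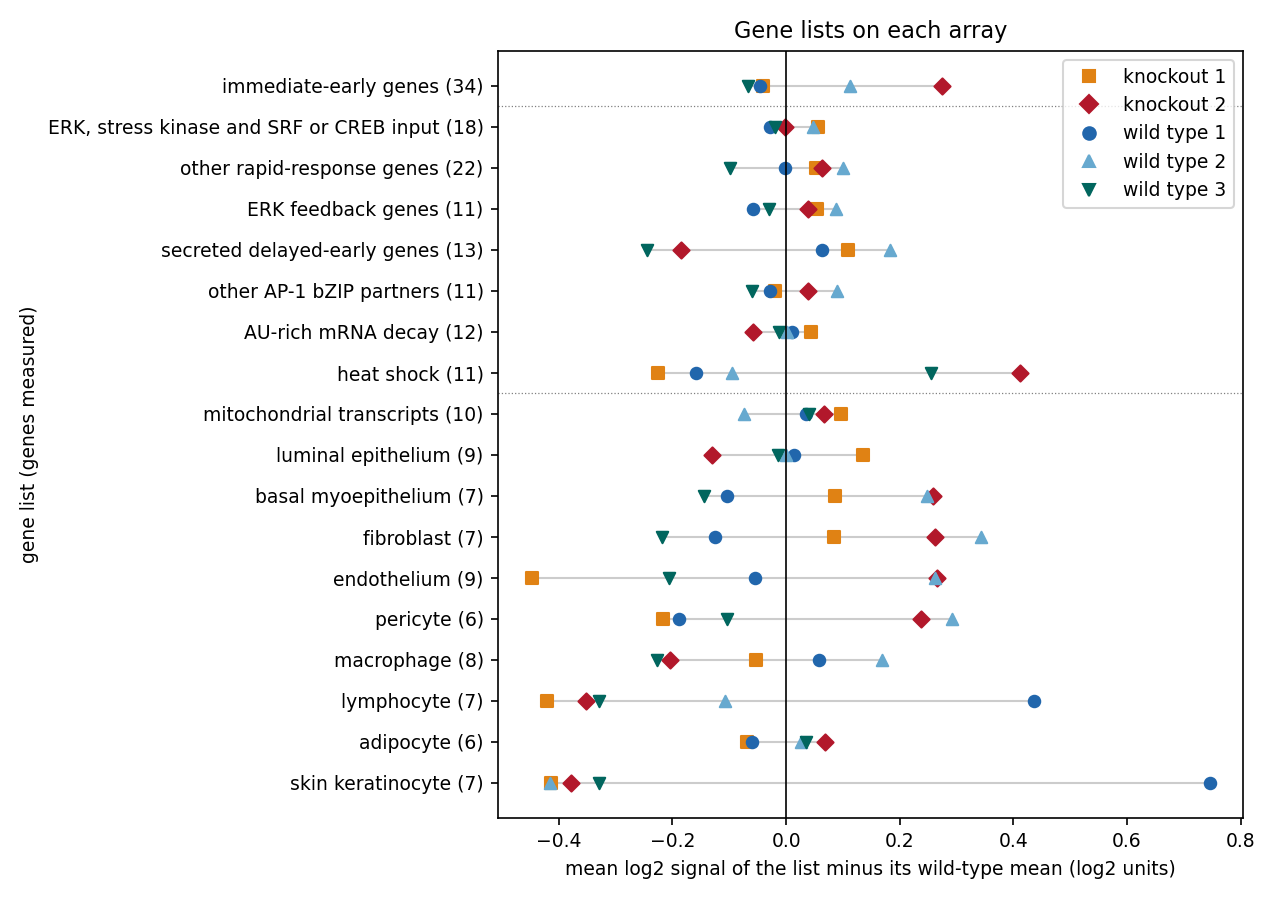
Mean log2 signal of each gene list on each of the 5 arrays, minus the mean of the 3 wild-type arrays (horizontal axis, log2 units), with the number of genes measured in brackets; each marker is 1 array and the grey line spans the 5 arrays. The immediate-early genes are highest on knockout 2 (0.27) and wild type 2 (0.11), heat shock genes on knockout 2 (0.41) and wild type 3 (0.25), and endothelial markers are lowest on knockout 1 (-0.45).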

How the data were processed

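Total RNA of mammary epithelial cells (10 ng per array) was hybridised to 5 Affymetrix arrays, 2 knockout and 3 wild type. The authors deposited one log2 signal for each probe set and array; RMA and limma are named, without versions, per the submitters' processing notes. The table holds 41345 probe sets: 23521 with 1 gene symbol in the platform annotation, 1814 with several and 16010 not listed. Knockout minus wild-type differences were tested over 22180 genes in R 4.3.3 by limma 3.58.1, two-sided and without covariates (lmFit, then eBayes), with Benjamini-Hochberg adjustment and a threshold of 0.05; SEs are limma's moderated SEs. The procedure was tested on simulated data. Array medians lay between 4.24 and 4.29. Signal and background were not separated by a detection call; all 34 genes lay at or above the 40th percentile of signal. The number of arrays limits the precision. The genes, lists and motifs were chosen with earlier results of these data known. Every measured member is named; from each pathway list at most 4 genes with the largest moderated t were eligible. The promoters printed follow a rule for CArG boxes and full elements, and windows inside gene models were then left out and Fos and Atf3 added after the values were seen. Alternatives were quantile normalisation, median centring, a filter on dim genes, averaging of probe sets within a gene, array weights, blocks for run or replicate number, single runs and leaving out each array.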

Additional observations from a re-analysis of the deposited data

How the results depend on the processing

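The interaction of run and genotype was added after seeing the data, and 9 genes of the set had an unadjusted p under 0.05 for it (26.5%, against 25.6% of all genes). The count of genes called was 0 over all genes in each alternative that kept 5 arrays and in the first run alone, apart from 288 at an unadjusted p under 0.05. With 1 array left out it ranged from 0 to 1757 (1757 or 7.92% of genes without knockout 1, 835 or 3.76% without knockout 2), and in the set from 0 to 4. With 1 knockout array left, its spread is taken to equal that of the wild type. Those of the set called without knockout 1 were Fosb (0.70), Egr2 (0.51), Ier5 (0.15) and Btg2 (0.49), all higher. Without knockout 2 those called were Egr2 (-0.23) and Btg2 (-0.19), in the opposite direction. The wild-type arrays of these genes lay close together, with SDs of 0.044 for Fosb, 0 for Egr2, 0.011 for Ier5 and 0.0024 for Btg2. The median wild-type SD over the set was 0.13. In the pathway lists 0 to 5 genes were called. The median difference of the set ranged from 0.031 without knockout 2 to 0.27 without knockout 1 and was 0.35 in the second run. After quantile normalisation 2 genes had groups that do not overlap, with the knockout higher (5.88% of the set, against 6.19% of all genes). Under the other settings this count ranged from 3 to 19. It was 19 without knockout 1 (22.6% of all genes), 10 without wild type 2 (6.19%), 8 without knockout 2 (18.4%) and 9 in the first run (23%), where 16 genes had a higher mean (44%). The 8 and the 9 are 23.5% and 26.5% of the set, close to the shares over all genes.

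The direction turned under some alternative for 19 of the 34 genes and for none of the other 15. In the first run alone it turned for Fos (-0.10), Atf3 (-0.31), Egr2 (-0.23), Nr4a1 (-0.32), Klf4 (-0.086), Csrnp1 (-0.21), Ier5 (-0.070), Btg2 (-0.19), Dusp1 (-0.031), Dusp5 (0.12), Gadd45b (-0.11), Arc (-0.41), Bag3 (-0.10) and Dnajb1 (-0.075), and in the second run for Egr3 (0.0086), Nr4a2 (0.72), Nr4a3 (0.73), Klf2 (0.16) and Sik1 (0.10). Quantile normalisation turned Atf3 (-0.012) and Nr4a3 (0.00058), the run as a block Atf3 (-0.059), Dusp5 (0.0054) and Arc (-0.064), and array weights Nr4a3 (0.015). With 1 array left out the ranges were -0.12 to 0.80 for Fos, -0.36 to 0.38 for Atf3, -0.23 to 0.51 for Egr2, -0.20 to 0.086 for Egr3, -0.21 to 0.30 for Nr4a1, -0.63 to 0.61 for Nr4a2, -0.43 to 0.43 for Nr4a3, -0.35 to 0.10 for Klf2, -0.036 to 0.13 for Klf4, -0.23 to 0.42 for Csrnp1, -0.072 to 0.15 for Ier5, -0.19 to 0.49 for Btg2, -0.17 to 0.13 for Dusp5, -0.14 to 0.050 for Sik1, -0.018 to 0.12 for Ier3, -0.11 to 0.20 for Gadd45b, -0.022 to 0.082 for Rhob, -0.48 to 0.54 for Arc, -0.81 to 0.19 for Ccn2, -0.15 to 0.63 for Bag3, -0.16 to 0.56 for Dnajb1 and -0.049 to 0.41 for Hspe1. The cause of these changes was not tested.

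The replicate numbers are shared by the genotypes, but nothing in the labels ties animals of the same number. Deviations from the group means correlated across genes at 0.25 for the arrays numbered 1 and at -0.04 for those numbered 2. The deviations of 2 knockout arrays mirror each other, so these values are not independent and do not settle the pairing; with no label for it, the numbers were not treated as pairs. With the replicate block, in which wild type 3 has no partner and drops out, 0 genes were called, the median of the set was 0.05, and the sign turned for Nr4a1 (-0.066), Klf4 (-0.036) and Gadd45b (-0.11).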
